A study of Mus musculus with 6 samples.

Results

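mmu-miR-203-3p, mmu-miR-203b-3p, mmu-miR-205-5p, mmu-miR-31-5p and mmu-miR-184-3p are mouse microRNAs (miRNAs), written here without the species prefix and named for keratinocytes, the cells that build the epidermis. They were found in the count table by their names, 5 of 649 entries, each on a row of its own. The table comes from small RNA libraries of skin of C57 mice (an inbred mouse strain) with a diabetic ulcer or a normal ulcer, all labelled day 14, with 3 samples deposited per group. The labels do not say how diabetes or the ulcers were produced, whether samples came from separate animals, or how deep the skin was cut. If they are technical repeats, the p-values below measure only technical spread.

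Features of the deposited data limit what the group names mean. The sample titles call the samples coded D3C diabetic ulcer and those coded D3M normal ulcer, whereas the header of the authors' deposited comparison table calls D3C the control and D3M the case. The groups below follow the titles, and every direction would turn round if the header were right. The columns numbered 3 largely follow from columns 1 and 2 of their group. Column 3 of normal ulcer lay within 1 read of 1 weighted sum of columns 1 and 2 for 601 of the 638 entries counted in it (94.2%). In diabetic ulcer the TPM of column 3 lay within 0.1% of 1 linear formula in columns 1 and 2 for 189 of 222 entries with at least 200 counts in diabetic ulcer 2 (85.1%). It equalled the plain mean of columns 1 and 2 within 0.1% for 25 of all 649 entries in diabetic ulcer and 204 in normal ulcer. For 4 of the 5 miRNAs (all but miR-184-3p) the TPM (the authors' normalised unit) in column 3 equalled the mean of columns 1 and 2 within 0.1%, in both groups. The results therefore rest on 4 libraries, named diabetic ulcer 1 and 2 and normal ulcer 1 and 2 after their titles, with total counts from 8949104 to 13421603.

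A miRNA is cut from a hairpin precursor and guides the silencing of messenger RNAs that pair with its seed, the bases near its 5′ end. miR-203 is among the most abundant miRNAs of the suprabasal epidermis, where it restrains the stem cell factor p63 and promotes differentiation. miR-205 marks the basal layer of stratified epithelia and supports survival of its progenitors, miR-31 is induced in keratinocytes at wound edges in mouse and human skin, and miR-184 is best known from cornea and epidermis, where it acts in differentiation. miR-203b is read from the DNA strand opposite miR-203.

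The mature sequences are shown because they define which messages each miRNA can pair with, with the seed (bases 2 to 8) in capitals. They are copied from the deposited table, in DNA letters, and equal the RefSeq entries of build GRCm38.p6.
mmu-miR-203-3p: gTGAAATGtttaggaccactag
mmu-miR-203b-3p: tTGAACTGtcaagaaccactgg
mmu-miR-205-5p: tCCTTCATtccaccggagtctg
mmu-miR-31-5p: aGGCAAGAtgctggcatagctg
mmu-miR-184-3p: tGGACGGAgaactgataagggt
No 2 of them share a seed, and no other entry of the table has any of these 5 seeds. The seeds of miR-203-3p and miR-203b-3p match at 6 of 7 positions, the closest pair. For the other 9 pairs the matches ranged from 0 to 4 positions.

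On GRCm38, the build named in the submitters' processing notes, miR-203-3p lies at chr12:112130927-112130948 on the plus strand and miR-203b-3p at chr12:112130887-112130908 on the minus strand. Neither overlaps another gene annotated in GENCODE M21. miR-205-5p lies at chr1:193507503-193507524 on the minus strand, in an exon of the long non-coding RNA 4631405K08Rik. miR-31-5p lies at chr4:88910614-88910635 on the minus strand, in an exon of the long non-coding RNA AL805899.1, and miR-184-3p lies at chr9:89802263-89802284 on the minus strand, outside other annotated genes.

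The RefSeq precursor of miR-203 (chr12:112130880-112130955, plus strand) shows the layout of the locus, with the miR-203-5p and miR-203-3p arms in capitals.
Mir203 hairpin: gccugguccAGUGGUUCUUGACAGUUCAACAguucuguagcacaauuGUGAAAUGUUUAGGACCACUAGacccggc
The arms of miR-203b lie opposite these arms. miR-203b-5p (aGTGGTCCtaaacatttcac, seed in capitals) is complementary over all 20 of its bases to miR-203-3p, and miR-203b-3p is complementary over 20 of its 22 bases to miR-203-5p. Whether counting used strand is not given in the sources used here, so reads of the pair may not be fully separated.

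Textbook targets of miR-203, miR-205 and miR-31 show what these seeds read, and Inppl1 was also searched for the miR-184-3p seed. Their 3′ untranslated regions were searched on the sense strand for the exact complement of bases 2 to 8, which is CATTTCA for miR-203-3p, ATGAAGG for miR-205-5p, TCTTGCC for miR-31-5p and TCCGTCC for miR-184-3p. Capitals in the stretches below mark these matches.
Trp63 for miR-203-3p, chr16:25891531-25891552, plus strand: aggggactctgtggCATTTCAg
Hif1an for miR-31-5p, chr19:44571260-44571281, plus strand: ttaatggactggacTCTTGCCa
Inppl1 for miR-184-3p and then miR-205-5p, chr7:101822898-101822925, minus strand: atccaTCCGTCCggaaATGAAGGaagag
Trp63 encodes p63, Hif1an a hydroxylase that inhibits hypoxia-inducible factor, and Inppl1 the lipid phosphatase SHIP2. Among regions of similar length the motif was found in 33.8% for Trp63 and in 34.6% for Hif1an, which held it at 2 places. For Inppl1 the shares were 5.88% for the miR-205-5p motif and 1.39% for the miR-184-3p motif, and the 2 matches lie 4 bases apart. In human keratinocytes miR-184 is known to interfere with the repression of SHIP2 by miR-205. Inppl1 is thus not named here as a message that miR-184 represses. The region of Zeb2, an inhibitor of the epithelial state, did not hold ATGAAGG, which was in 33.9% of regions of similar length. A match describes letters only, and the messages were not measured here.

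The 5 miRNAs spanned more than 3 orders of magnitude, and their order was the same in every library except for miR-31-5p and miR-203b-3p in diabetic ulcer 2. miR-203-3p ranked 10 of 649 by mean level, miR-205-5p 35, miR-31-5p 173, miR-203b-3p 213 and miR-184-3p 273. Levels are CPM (counts-per-million values) scaled by TMM, which sets library scales from the bulk of miRNAs. miRNAs are of nearly equal length, so no length term is needed between them, but capture of small RNAs also depends on their sequence, which was not measured, so levels are compared between miRNAs as read numbers only. The level of miR-203-3p was 11.9 to 14.3 times that of miR-205-5p, which was 38.3 to 70.2 times that of miR-31-5p. The lower neighbours were not separated beyond their spread between libraries, with miR-31-5p at 0.403 to 6.39 times miR-203b-3p and miR-203b-3p at 1.04 to 3.66 times miR-184-3p.

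miR-203-3p carried 92.1% to 93.2% of the counts of the 5. Its level was 34265 and 15245 CPM in diabetic ulcer 1 and 2, against 41537 and 18502 CPM in normal ulcer 1 and 2. Library 1 was above library 2 in both groups, and the groups overlapped. It took 4.07% of all counts (95% Wilson interval 4.06 to 4.09) in diabetic ulcer 1 and 1.54% (1.54 to 1.55) in diabetic ulcer 2, against 5.53% (5.51 to 5.54) in normal ulcer 1 and 1.16% (1.15 to 1.16) in normal ulcer 2. Such intervals cover counting error only, because reads copied by amplification do not count separate molecules.

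miR-205-5p had 2871 and 1083 CPM in the diabetic ulcer libraries, against 3406 and 1294 CPM in the normal ulcer libraries, so library 1 was again the higher one in each group and the groups overlapped. The level in library 1 over that in library 2 was 2.65 in diabetic ulcer and 2.63 in normal ulcer. For miR-203-3p that fold was 2.25 in each group.

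miR-31-5p had 53.9 and 15.4 CPM in the diabetic ulcer libraries, on 597 and 168 counts. It had 75.2 and 33.8 CPM in the normal ulcer libraries, on 895 and 283 counts. Diabetic ulcer 2 was the lowest and normal ulcer 1 the highest, and diabetic ulcer 1 lay above normal ulcer 2.

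miR-203b-3p ran the other way between libraries, with library 2 the higher one in both groups. It had 9.22 and 38.3 CPM in diabetic ulcer, on 102 and 417 counts. In normal ulcer it had 11.8 and 18.0 CPM, on 140 and 151 counts. Diabetic ulcer 2 stood above the other libraries, and diabetic ulcer 1 was the lowest of the 4.

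miR-184-3p was the rarest and the flattest, with 8.40 and 10.5 CPM in diabetic ulcer against 11.3 and 10.3 CPM in normal ulcer, on 86 to 134 counts per library. Its groups overlapped as well. Its deposited value in column 3 of diabetic ulcer was 9 counts, against 93 and 114 counts in columns 1 and 2. The deposited TPM there was 5.47, against 4.41 and 5.10 in columns 1 and 2, so counts and TPM of that column conflict.

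**Figure D1:**
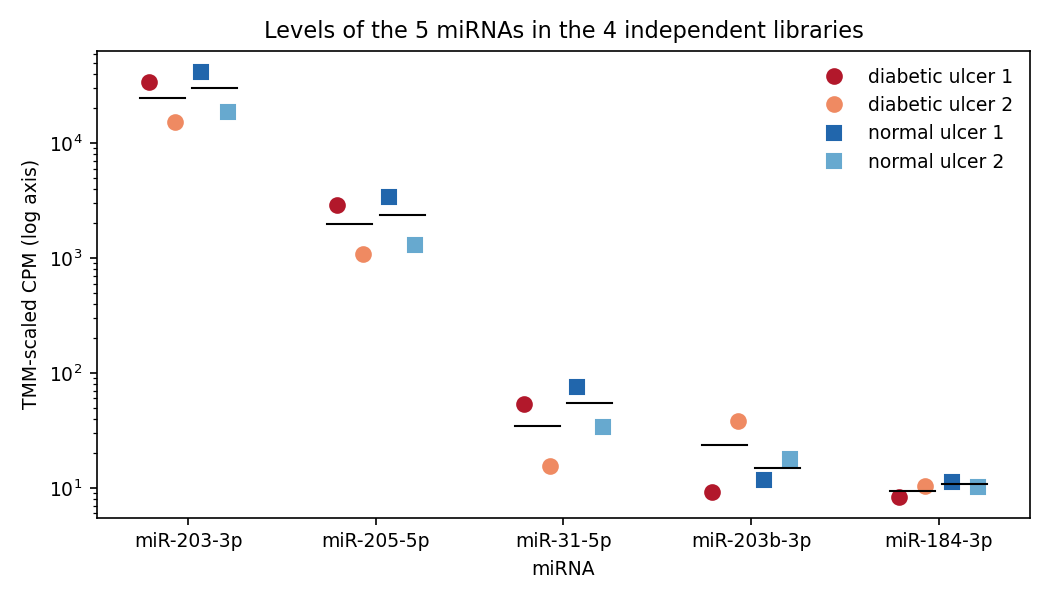
TMM-scaled CPM (log axis) of the 5 miRNAs, with 1 point per library, circles for diabetic ulcer, squares for normal ulcer and a line at each group mean (n = 2). miR-203-3p lies between 15245 and 41537 CPM and miR-184-3p between 8.40 and 11.3 CPM, and the groups overlap for all 5.

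The comparison that the labels imply asks whether these miRNAs differ between diabetic and normal ulcer skin. None of the 5 passed: edgeR's quasi-likelihood test over the 4 libraries gave each an adjusted p = 0.999. Across the whole table the test called 0 of 443 entries, a background of 0%, and 4 entries (0.903%) had an unadjusted p under 0.05, none of them among the 5. Those 4, chosen after their values were seen, were miR-19b-3p, miR-3102-3p, miR-467c-5p and miR-669a-3p (1 row with miR-669o-3p). DESeq2 and limma-voom also called 0 entries, each with 4 at an unadjusted p under 0.05. The groups did not overlap for 21% of tested entries (both diabetic ulcer libraries above both normal ulcer libraries for 9.03%, below for 12%), and for 0 of the 5 miRNAs.

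miR-203-3p averaged 24755 ± 13449 CPM in diabetic ulcer and 30019 ± 16288 CPM in normal ulcer (SD, n = 2 each), a log2 difference of -0.28 ± 0.56 (SE). miR-205-5p averaged 1977 ± 1265 CPM in diabetic ulcer and 2350 ± 1494 CPM in normal ulcer (SD, n = 2 each), a log2 difference of -0.25 ± 0.63 (SE). For both, the SD within each group was larger than the difference between the means. miR-31-5p averaged 34.7 ± 27.2 CPM in diabetic ulcer and 54.5 ± 29.3 CPM in normal ulcer (SD, n = 2 each), a log2 difference of -0.65 ± 0.68 (SE). miR-203b-3p averaged 23.7 ± 20.5 CPM in diabetic ulcer and 14.9 ± 4.43 CPM in normal ulcer (SD, n = 2 each), a log2 difference of 0.68 ± 0.70 (SE). miR-184-3p averaged 9.43 ± 1.46 CPM in diabetic ulcer and 10.8 ± 0.702 CPM in normal ulcer (SD, n = 2 each), a log2 difference of -0.19 ± 0.35 (SE). Beside a median of -0.016 over all tested entries, 4 of the 5 values were negative and 1 positive, with a median of -0.25.

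Leaving out single libraries changed most of these signs. For miR-203-3p, miR-205-5p and miR-31-5p the diabetic ulcer library was the lower one at each library number. miR-203-3p had 34265 against 41537 CPM in libraries 1 and 15245 against 18502 CPM in libraries 2. Library 1 was above library 2 in both groups, so dropping 1 library leaves the groups with unequal shares of the higher libraries 1. The labels do not say that equal numbers are pairs. Without diabetic ulcer 2 the log2 difference was 0.27 for miR-203-3p, 0.37 for miR-205-5p, 0.063 for miR-31-5p and -0.63 for miR-203b-3p, all of the opposite sign. Without normal ulcer 1 it was 0.42 for miR-203-3p, 0.61 for miR-205-5p and 0.035 for miR-31-5p, again of the opposite sign. Without diabetic ulcer 1 it was -0.96 for miR-203-3p, -1.10 for miR-205-5p, -1.81 for miR-31-5p and 1.37 for miR-203b-3p, and without normal ulcer 2 it was -0.64 for miR-203-3p, -0.67 for miR-205-5p and 1.12 for miR-203b-3p. edgeR's adjusted p for the 5 was 0.98 at its lowest in these 4 fits, in which the lone library of a group is assumed to vary like the others. Only miR-184-3p kept its sign in all 4, from -0.29 to -0.033.

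**Figure D2:**
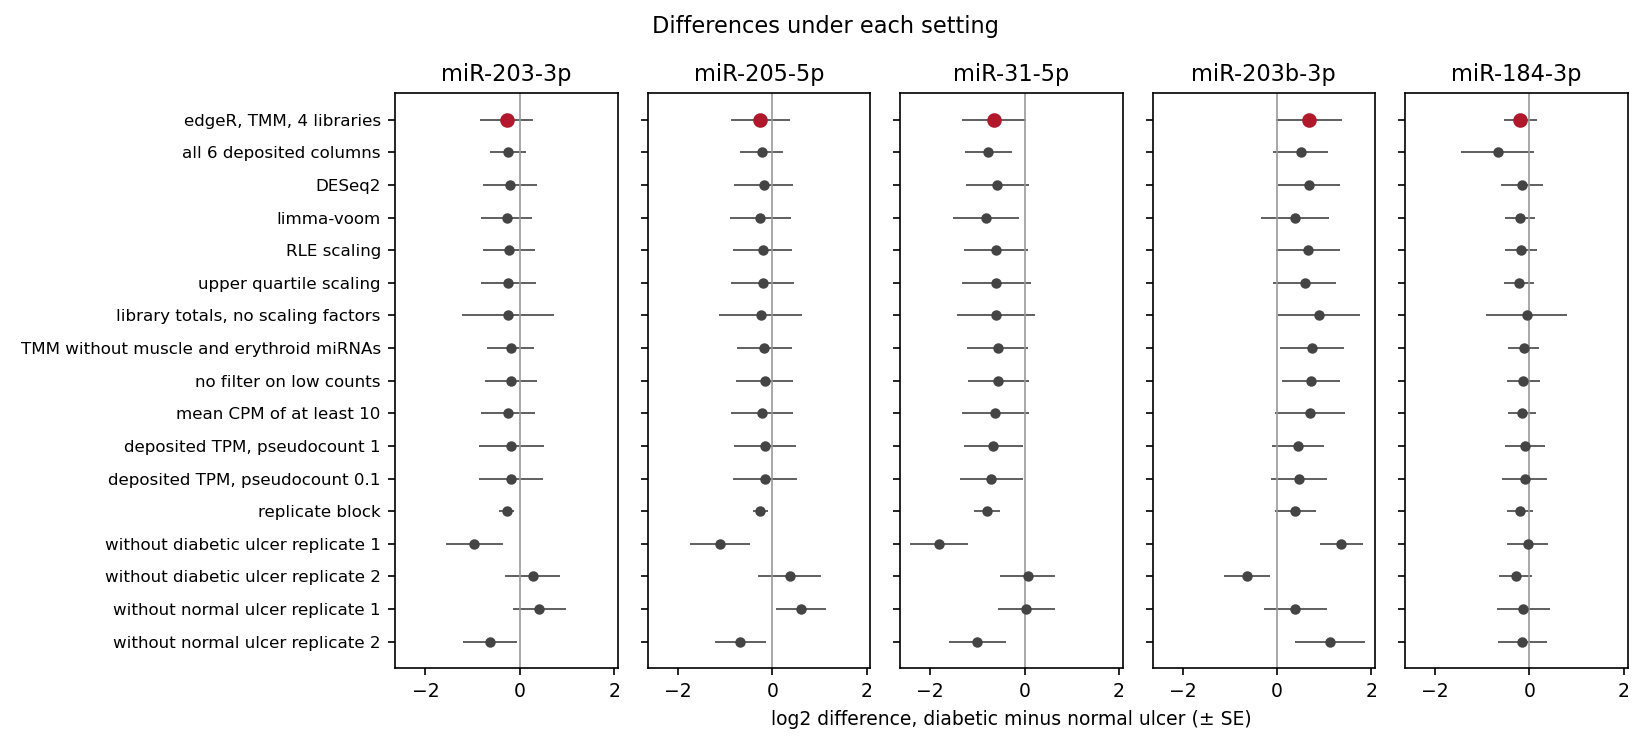
Log2 difference, diabetic minus normal ulcer, with its SE, for each of the 5 miRNAs under the fit over 4 libraries (top row, red) and each alternative. The points keep their side of 0 under every tool and scaling and cross 0 for miR-203-3p, miR-205-5p and miR-31-5p where diabetic ulcer 2 or normal ulcer 1 is left out, for miR-203b-3p where diabetic ulcer 2 is left out, and for miR-184-3p in no fit.

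The authors' deposited table holds a larger difference for 4 of the 5, made from another division of the libraries. In the authors' deposited table the fold runs D3M over D3C, so by the titles it is normal over diabetic ulcer. Its base means could be rebuilt from the counts: the D3C mean was 0.931 times diabetic ulcer 2 alone within 1% for 646 of 647 entries, and the D3M mean was a weighted sum of normal ulcer 1, normal ulcer 2 and diabetic ulcer 1 within 1% for all 647. Diabetic ulcer 1 thus stands on the D3M side there, and the D3C side is 1 library. For miR-31-5p the authors' deposited table gives means of 156 for D3C and 567 for D3M, a fold of 3.63 (p = 0.000608, q = 0.132, rank 3 of 649 by p). For miR-205-5p the authors' deposited table gives a fold of 2.41 (p = 0.0307) and for miR-203-3p a fold of 2.13 (p = 0.0405), both with q = 0.991. For miR-203b-3p the authors' deposited table gives means of 388 for D3C and 135 for D3M, a fold of 0.348 (p = 0.00307, q = 0.399), and for miR-184-3p a fold of 0.981 (p = 0.952, q = 0.991). So 4 of the 5 have p under 0.05 in the authors' deposited table, against 3.54% of its 649 entries, and 0 have q under 0.05, against 0.154%. Of the 21 entries with p under 0.05 and a fold of at least 2 in either direction in the authors' deposited table, 20 have a D3C column 3 TPM equal to the mean of columns 1 and 2 within 0.1%. Of the other 628 entries 5 do.

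miR-203-3p and miR-205-5p moved between libraries much like miR-200c-3p of the epithelial miR-200 family, which guards the epithelial state by repressing Zeb factors. Likeness was measured as the root mean square distance between log2 levels centred on the mean of the 4 libraries, over entries with a mean of at least 10 CPM. These distances describe 4 libraries and carry no test. For miR-203-3p the nearest of 271 entries were miR-200c-3p (distance 0.056), its own antisense arm miR-203b-5p (0.10) and miR-141-3p of the miR-200 family (0.10). For miR-205-5p they were miR-200c-3p (0.10), miR-203-3p (0.12) and miR-96-5p of the hair follicle and sensory miR-183 cluster (0.13). The likeness was thus not particular to the miR-200 family. miR-183-5p of the same cluster had 1396 and 741 CPM in diabetic ulcer 1 and 2, against 1713 and 741 CPM in normal ulcer 1 and 2. The median distance over all entries was 0.61 from miR-203-3p and 0.72 from miR-205-5p.

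miR-200c-3p had 2060 and 827 CPM in diabetic ulcer 1 and 2, against 2405 and 1092 CPM in normal ulcer 1 and 2. That is the same order of libraries as for miR-203-3p. For miR-31-5p the nearest entries were miR-375-3p, an epithelial and endocrine miRNA, at 0.29, miR-200c-3p at 0.30 and the imprinted miR-154-5p at 0.32, against a median of 0.87.

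The remaining 2 did not follow the epithelial miRNAs. miR-203b-3p was nearest to miR-142a-3p, a miRNA of leukocytes, at 0.21, then miR-1198-5p (0.26) and miR-335-3p (0.29). miR-142a-3p had 90.6 and 348 CPM in diabetic ulcer, against 104 and 121 CPM in normal ulcer, with diabetic ulcer 2 the highest, as for miR-203b-3p. From miR-203b-3p, 258 of 271 entries were nearer than miR-203-3p, which lay at 1.34. miR-184-3p was nearest to miR-28a-3p (0.043), miR-221-3p (0.047) and let-7g-5p (0.049), entries that varied little between libraries, and miR-203-3p and miR-205-5p lay at 0.64 and 0.76 from it. In these libraries miR-203-3p, miR-205-5p and, more loosely, miR-31-5p thus varied like miR-200c-3p. Being higher in library 1 of each group was not particular to epithelial miRNAs. The fibroblast miR-199a-5p had 3977 and 2935 CPM in diabetic ulcer 1 and 2, against 4685 and 2564 CPM in normal ulcer 1 and 2.

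**Figure D3:**
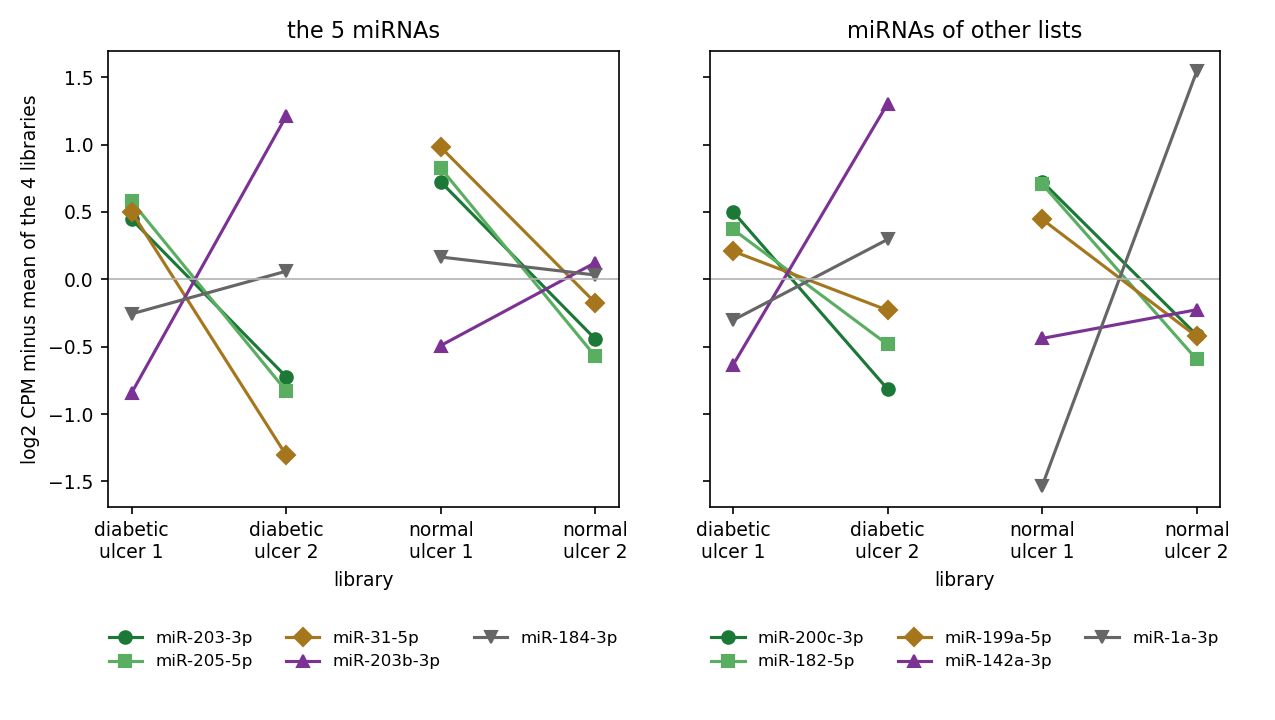
Log2 CPM minus the mean of the 4 libraries for the 5 miRNAs (left) and for 1 miRNA each of the epithelial, hair follicle, fibroblast, leukocyte and muscle lists (right), with lines joining the libraries of a group. miR-203-3p, miR-205-5p and miR-31-5p are above the mean in diabetic ulcer 1 and normal ulcer 1. So are miR-200c-3p, miR-182-5p and the fibroblast miR-199a-5p, while miR-203b-3p and miR-142a-3p peak in diabetic ulcer 2.

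The cell makeup of the libraries was not measured. Levels of miRNAs listed for other cell types differed between the libraries, in several orders, and the part of cell makeup in the 5 miRNAs was not tested. In bulk skin, fewer keratinocytes and less of a miRNA per keratinocyte cannot be told apart. The 6 skeletal muscle entries summed to 35.7% and 44.9% of counts in diabetic ulcer 1 and 2, against 17.2% and 66.1% in normal ulcer 1 and 2. The 5 keratinocyte miRNAs summed to 4.42% and 1.66% in diabetic ulcer, against 5.99% and 1.24% in normal ulcer. Over the 4 libraries this order was the reverse of that of muscle. Shares of the same total are tied to each other, and the part of the muscle share in this order was not tested. In TMM-scaled CPM the 5 summed to 37208 and 16392 in diabetic ulcer, against 45041 and 19858 in normal ulcer, and there the order was not the reverse, since diabetic ulcer 2 was below normal ulcer 2. miR-1a-3p, the most abundant entry and a muscle miRNA, had 3204086 and 4778211 counts in diabetic ulcer, against 1469507 and 8721325 counts in normal ulcer. With the muscle and erythroid lists taken out of the table, the log2 differences were -0.20 for miR-203-3p, -0.16 for miR-205-5p, -0.57 for miR-31-5p, 0.74 for miR-203b-3p and -0.12 for miR-184-3p.

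The summed level of the 6 leukocyte entries was 724 and 1491 CPM in diabetic ulcer, against 904 and 1020 CPM in normal ulcer. That of the 3 fibroblast entries was 15594 and 10837 CPM in diabetic ulcer, against 17346 and 11115 CPM in normal ulcer. The summed leukocyte level was thus highest in diabetic ulcer 2, though miR-155-5p was lowest there (101 and 93.5 CPM in diabetic ulcer, against 165 and 129 CPM in normal ulcer) and miR-342-3p was highest in normal ulcer 1, and the summed fibroblast level was higher in library 1 of each group. For the 2 endothelial entries it was 9978 and 18281 CPM in diabetic ulcer, against 11780 and 15827 CPM in normal ulcer. The 2 smooth muscle entries had 27955 and 39597 CPM in diabetic ulcer, against 33310 and 31001 CPM in normal ulcer, and the 4 erythroid entries 933 and 1056 CPM in diabetic ulcer, against 600 and 1601 CPM in normal ulcer. No listed marker with a row in the count table was at 0 in all 4 libraries. The muscle miR-208b-3p was counted only in normal ulcer 2, with 35 counts.

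In the miR-200 family 0 of 5 tested entries passed edgeR's test, with 4 values negative and 1 positive and a median log2 difference of -0.32. miR-200a-3p averaged 1500 ± 504 CPM in diabetic ulcer and 1936 ± 1261 CPM in normal ulcer (SD, n = 2 each), and miR-200b-3p averaged 1085 ± 368 CPM in diabetic ulcer and 1397 ± 736 CPM in normal ulcer. miR-429-3p averaged 265 ± 141 CPM in diabetic ulcer and 264 ± 166 CPM in normal ulcer (SD, n = 2 each). In the miR-183 cluster 0 of 3 passed, all 3 values were negative and the median was -0.20, with miR-182-5p at 3248 ± 1322 CPM in diabetic ulcer and 3711 ± 2219 CPM in normal ulcer (SD, n = 2 each).

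Of 14 other miRNAs listed as known from skin or wound epithelium, 12 had a row in the count table, and all 12 were tested. Among these 0 passed, 9 values were negative and 3 positive, and the median was -0.10. miR-21a-5p, raised at many wounds, averaged 29266 ± 1029 CPM in diabetic ulcer and 31465 ± 4188 CPM in normal ulcer (SD, n = 2 each). All 443 tested entries divided into 232 negative and 211 positive values.

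Ratios of counts within a library need no scaling, so the share taken by muscle miRNAs does not enter them. miR-203-3p was counted 11.9 and 14.1 times per count of miR-205-5p in diabetic ulcer 1 and 2, against 12.2 and 14.3 times in normal ulcer 1 and 2. The groups overlapped, and the log2 ratio differed by -0.027 between groups, less than the SD of 0.17 in diabetic ulcer and 0.16 in normal ulcer. An exact two-sided permutation test gave p = 0.667 (adjusted p = 1 over 4 ratios).

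miR-31-5p was counted 0.0188 and 0.0142 times per count of miR-205-5p in diabetic ulcer, against 0.0221 and 0.0261 times in normal ulcer. Both diabetic ulcer libraries lay below both normal ulcer libraries, with a log2 difference of -0.55 and an exact two-sided permutation p = 0.333, the smallest that 2 against 2 libraries can give (adjusted p = 1). The same order was found for 0.68% of 441 entries, though most entries did not follow miR-205-5p between libraries.

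The denominator miR-205-5p was lower in library 2 of each group, and a lower denominator raises the ratio. miR-184-3p itself varied little, from 8.40 to 11.3 CPM. For miR-203b-3p the ratio was 0.00321 and 0.0353 in diabetic ulcer, against 0.00345 and 0.0139 in normal ulcer. For miR-184-3p it was 0.00293 and 0.00966 in diabetic ulcer, against 0.0033 and 0.00793 in normal ulcer. Both differed more between libraries 1 and 2 than between groups (log2 differences of 0.62 for miR-203b-3p and 0.055 for miR-184-3p, exact two-sided permutation p = 1 for each, adjusted p = 1).

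**Figure D4:**
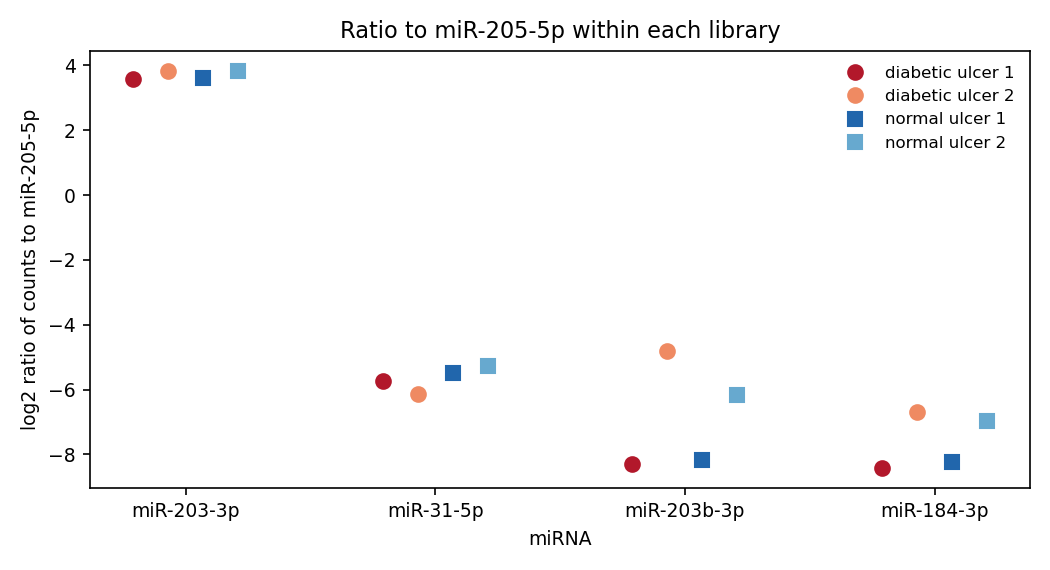
Log2 ratio of counts to those of miR-205-5p within each library, circles for diabetic ulcer and squares for normal ulcer. The points of miR-203-3p lie close together, and those of miR-31-5p are lower in both diabetic ulcer libraries. Those of miR-203b-3p and miR-184-3p are higher in library 2 of each group, where the denominator miR-205-5p is lower.

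Each hairpin yields a second arm, which gives another reading of the same precursor. The other arms of miR-203, miR-203b, miR-205 and miR-31 were counted, and miR-184-5p had no row in the count table. None of the 4 passed edgeR's test, with log2 differences of -0.38 for miR-203-5p, -0.12 for miR-203b-5p, 0.033 for miR-205-3p and -0.31 for miR-31-3p.

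miR-203-3p outnumbered miR-203-5p 4034 and 3610 times in diabetic ulcer, against 3746 and 3446 times in normal ulcer. miR-205-5p outnumbered miR-205-3p 64.1 and 69.8 times in diabetic ulcer, against 79.7 and 80.3 times in normal ulcer. miR-31-5p outnumbered miR-31-3p 5.06 and 3.57 times in diabetic ulcer, against 5.49 and 7.08 times in normal ulcer. miR-31-3p had only 118 and 47 counts in diabetic ulcer, against 163 and 40 counts in normal ulcer. These arm ratios were not tested, and 2 libraries against 2 cannot give an exact p under 0.333. How often the groups stay apart in other arm pairs was not counted, so no group difference is read from them.

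On the opposite strand of the miR-203 locus the arms behaved unlike each other. miR-203b-5p, the strand opposite miR-203-3p, had 532 and 254 counts in diabetic ulcer, against 636 and 201 counts in normal ulcer. It kept a narrow ratio to miR-203-3p, which had 713 and 654 counts per count of miR-203b-5p in diabetic ulcer, against 778 and 771 in normal ulcer. miR-203b-3p had 1.09 and 9.07 counts per count of miR-203-5p, which lies opposite it, in diabetic ulcer, against 1.06 and 3.36 in normal ulcer. Its ratio thus varied 8.55-fold between libraries, whereas that of miR-203-3p to miR-203b-5p varied 1.19-fold. miR-203-5p itself had 94 and 46 counts in diabetic ulcer, against 132 and 45 counts in normal ulcer.

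**Figure D5:**
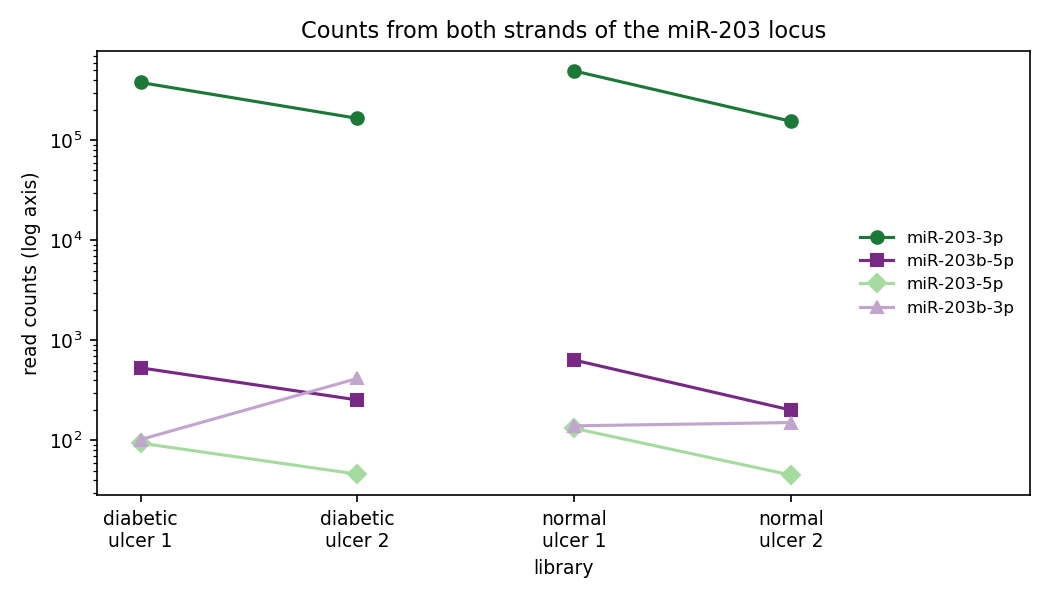
Read counts (log axis) of the 4 mature miRNAs from both strands of the miR-203 locus, with lines joining the libraries of a group. miR-203-3p, miR-203b-5p and miR-203-5p have fewer counts in library 2 of each group, while miR-203b-3p has 417 counts in diabetic ulcer 2 against 102 in diabetic ulcer 1.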

How the data were processed

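The authors deposited whole-number read counts per mature miRNA, and TPM values per sample, per the file headers. Per the file headers, the authors' comparison table was made with DESeq2, unpaired, and gives base means, a fold change (a linear ratio) with its log2, and a p-value with its q-value. Which aligner, counter and miRNA annotation were used is not given in the sources used here. GRCm38 and mm10, names of 1 mouse build, are from the submitters' processing notes. Lengths and base means are deposited as other values, and 0 columns were left unmapped.

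The members, lists and tests were chosen with earlier results of these data known. edgeR 4.0.16 (R 4.3.3; quasi-likelihood F test, TMM, filterByExpr defaults, group as the only term) was fitted to all entries of libraries 1 and 2 of each group, with Benjamini-Hochberg adjustment over 443 tested entries and a threshold of 0.05. All 5 miRNAs passed the filter. Alternatives used DESeq2 1.42.0, limma 3.58.1, other scalings, filters and libraries, and log2(TPM + 1) or log2(TPM + 0.1). TMM factors were 1.19 and 1.01 for diabetic ulcer 1 and 2 and 1.33 and 0.624 for normal ulcer 1 and 2. SEs are the log2 difference over the square root of F. A count of 0 allows up to 3 counts, or 0.252 to 0.358 CPM per library.

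Named entries are the 5 miRNAs, their other arms, the 3 nearest entries of each, up to 4 of the most abundant entries of each list and the most abundant entry of the table. Target regions are the longest 3′ untranslated region per protein-coding gene of GENCODE M21 (21001 genes), and similar length means 0.8 to 1.25 times that of the target. The code was tested on simulated data.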

Additional observations from a re-analysis of the deposited data

How the results depend on the processing

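Over 16 alternatives to the fit, the log2 difference, diabetic minus normal ulcer, was negative for miR-184-3p throughout, and changed sign for the other 4 miRNAs only where 1 library was left out. It then ran from -0.96 to 0.42 for miR-203-3p, -1.10 to 0.61 for miR-205-5p, -1.81 to 0.063 for miR-31-5p and -0.63 to 1.37 for miR-203b-3p. No alternative put any of the 5 past the threshold (adjusted p from 0.602 to 1.000). The count of called entries was 1 with library totals (miR-499-5p, a muscle miRNA, seen after the fact) and ran from 0 to 6 where 1 library was left out, with 6 without normal ulcer 1, none of them among the 5. The cause was not tested. All 6 columns moved miR-184-3p to -0.67, where its diabetic column 3 holds 9 counts, and turned its ratio to miR-205-5p to -1.10. Without single libraries the log2 difference of the ratio to miR-205-5p ran from -0.15 to 0.092 for miR-203-3p, -1.11 to 2.35 for miR-203b-3p and -0.81 to 0.92 for miR-184-3p. For miR-31-5p it ran from -0.75 to -0.35 and kept its sign. The labels do not say that equal numbers pair the samples. Deviations of same-numbered libraries from their group means correlated at 0.44 across 443 entries. With the replicate number as a block, edgeR called 0 entries (20 at an unadjusted p under 0.05), and miR-31-5p had -0.80 ± 0.27 (SE; unadjusted p = 0.0404, adjusted p = 0.992). In that fit miR-203-3p had -0.28 ± 0.15 and miR-205-5p -0.25 ± 0.16 (SE), with smaller SEs than the 0.56 and 0.63 without the block. miR-203b-3p had 0.39 ± 0.44 and miR-184-3p -0.20 ± 0.28 (SE). Library totals shifted the median of all entries to 0.17 and leaving out normal ulcer 2 to 0.10. With 86 to 151 counts, miR-184-3p and miR-203b-3p are limited by depth in some libraries.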
